A study of Chlorocebus sabaeus with 3 samples.

Results

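The genes described here are 10 genes of the connective tissue matrix, taken by gene name from the deposited files. Of these, 6 encode small leucine-rich proteoglycans (LUM, DCN, BGN, FMOD, OGN and ASPN) and 4 encode matrix glycoproteins (FN1, SPARC, POSTN and MATN2). All 10 were found among the 33994 rows of each file. The libraries were made from the cell-free RNA of amniotic fluid supernatant of the vervet monkey (Chlorocebus sabaeus), an Old World primate. Each status label had 1 library. The stillborn one carries the sex label M, that of the spontaneous abortion NA and the alive one F. The sources used here state no gestational age, genotype or treatment. Library totals, solved from the deposited values, were 17749954 reads in the stillborn library, 29926352 after spontaneous abortion and 20220899 in the alive library.

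With 1 library per status, outcome, animal and sex label cannot be told apart. The comparisons below therefore set library against library, carry no p-value, and have 95% intervals that cover counting error only. In fluid RNA, fewer cells of a type and less RNA per cell cannot be told apart either. Values are RPKM, assigned reads divided by gene length and by library size, and the read numbers behind them were recovered from the deposited values. TMM factors (trimmed mean of M-values) scale the ratios between libraries, while the RPKM printed are as deposited. The 2 comparisons with the alive library share that library.

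Small leucine-rich proteoglycans are secreted proteins with a curved core of leucine-rich repeats that bind collagen fibrils and set their diameter and spacing. Decorin, biglycan and asporin form one class of the family, lumican and fibromodulin another, and osteoglycin belongs to one more. Fibronectin is a fibrillar glycoprotein through which cells attach by integrins. SPARC and periostin are matricellular proteins, which modulate the contact of cells with the matrix, and matrilin-2 is an adaptor in filamentous networks. In fetal tissue these genes are typical of mesenchyme, and fibronectin is also made by the liver and by amnion.

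By RPKM, 4 of the 10 genes were high and 6 low in each of the 3 libraries. Of the low ones, BGN, FMOD, OGN and ASPN were near the limit of detection, while POSTN and MATN2 reached 199 and 116 reads in the alive library. LUM, SPARC, FN1 and DCN carried 99.93% of the summed RPKM of the 10 genes in the stillborn library, 99.94% in the spontaneous abortion library and 99.76% in the alive library. The other 6 genes together had 55, 97 and 332 reads in those libraries. In mean RPKM, LUM stood above 98.9% of the genes detected in any library, SPARC above 98.7%, FN1 above 93.8% and DCN above 90.9%. POSTN, the highest of the low genes, stood above 35.1%.

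**Figure D1:**
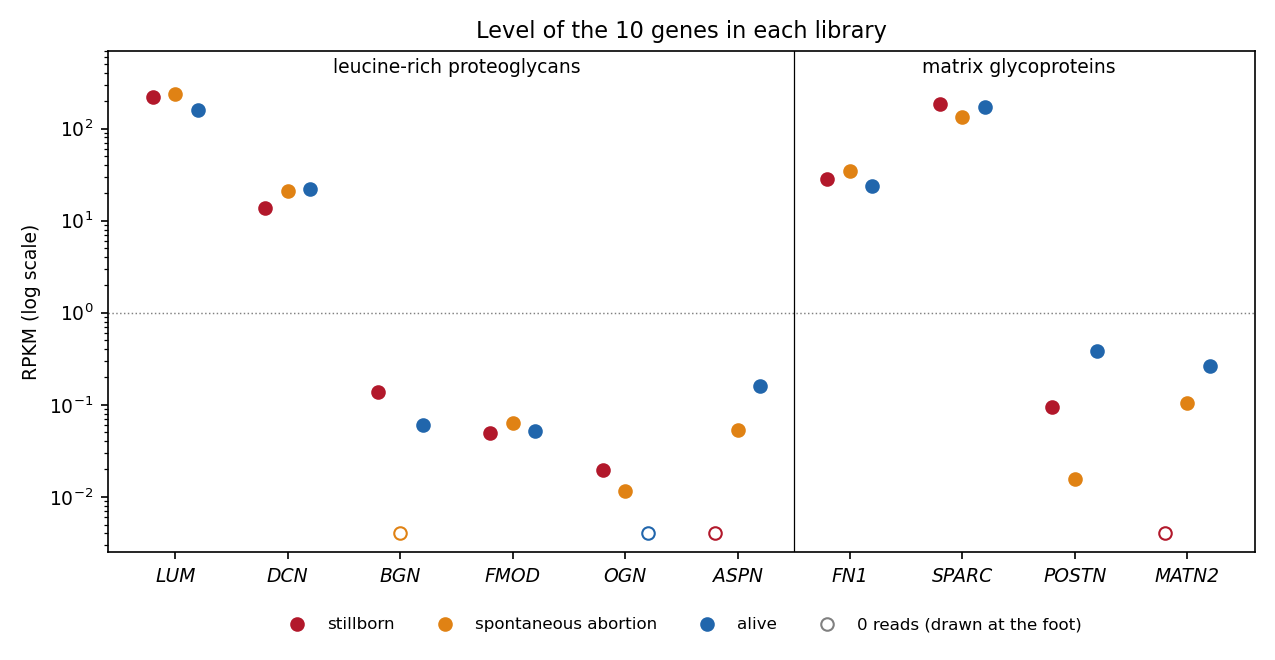
RPKM of the 10 genes on a log axis, 1 point for each library (stillborn, spontaneous abortion, alive from left to right). Open circles at the foot stand for 0 reads and the dotted line for RPKM 1. LUM, DCN, FN1 and SPARC lie above RPKM 10 in all libraries, and the other 6 genes lie below RPKM 1.

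LUM encodes lumican, a keratan sulfate proteoglycan of cornea and of collagen-rich tissue. The stillborn library had an RPKM of 222, the spontaneous abortion library 239 and the alive library 158, from 7943, 14446 and 6440 reads. The mean was 206 ± 42.8 (SD, n = 3 libraries). By RPKM it ranked 247th, 212th and 317th of all genes in these libraries. Both losses were above the alive library, at ratios to it of 1.57 in the stillborn (95% interval 1.52 to 1.63) and 1.56 in the spontaneous abortion (1.51 to 1.61). The 2 losses lay at a ratio of 1.01 to each other (0.982 to 1.04, stillborn over spontaneous abortion), an interval that includes 1. With library totals in place of TMM factors that last log2 ratio was -0.11.

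DCN encodes decorin, the chondroitin or dermatan sulfate proteoglycan that binds collagen and transforming growth factor beta. The stillborn library had an RPKM of 13.8, the spontaneous abortion library 20.9 and the alive library 22.0, from 1076, 2749 and 1961 reads, with a mean of 18.9 ± 4.47 (SD, n = 3 libraries). The stillborn library was the low one. Its ratio was 0.699 to the alive library (0.649 to 0.754) and 0.718 to the spontaneous abortion library (0.669 to 0.771). The spontaneous abortion library did not differ from the alive one beyond counting error, at 0.974 (0.918 to 1.03).

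LUM thus lay above and DCN below the alive library in the stillborn library, both with intervals that exclude 1. Within a library, the RPKM of LUM was 16.1 times that of DCN for stillborn, 11.5 times for spontaneous abortion and 7.16 times for alive. The change in this quotient does not depend on gene length or on the scaling of libraries. It was 2.25-fold between the stillborn and the alive library (95% interval 2.07 to 2.44, normal approximation for counting error on the log scale) and 1.60-fold between the spontaneous abortion and the alive library (1.50 to 1.71). Between the stillborn and the spontaneous abortion library it was 1.40-fold (1.30 to 1.52).

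The other 4 proteoglycans among the 10 were barely detected. BGN, biglycan, the closest relative of decorin, had 6 reads (stillborn), 0 (spontaneous abortion) and 3 (alive), which are RPKM 0.138, 0 and 0.0604. Taken as 3 reads, the floor used here for 0 reads, the spontaneous abortion library would stand at RPKM 0.0408. FMOD, fibromodulin, had 5, 11 and 6 reads in the same order, at RPKM 0.0489, 0.0638 and 0.0515. ASPN, asporin, a decorin relative that lacks the glycosaminoglycan attachment site, had 0, 4 and 8 reads, at RPKM 0, 0.0537 and 0.159. Its floor of 3 reads in the stillborn library was RPKM 0.0679. OGN, osteoglycin, had 1, 1 and 0 reads, and its floor of 3 reads in the alive library was RPKM 0.0518. At these read numbers no difference of OGN was detectable. The intervals of the FMOD ratios included 1 in all 3 comparisons.

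The split runs through neighbouring genes. By gene order in RefSeq (assembly mChlSab1.0.hap1, from which no coordinate was taken), LUM and DCN are adjacent, with KERA (keratocan) and EPYC (epiphycan) next to them. KERA had 3 reads in the stillborn library and 0 in the others, and EPYC 5 in the spontaneous abortion library and 0 in the others. ASPN and OGN lie with OMD (osteomodulin) and ECM2 in a second group, and FMOD lies with PRELP and OPTC (opticin). None of these 7 genes reached RPKM 1 in any library. Of 18 genes of the wider family found in the files, 3 reached RPKM 1 in all libraries, LUM, DCN and TSKU (tsukushi, an inhibitor of BMP signalling). TSKU was at RPKM 2.70, 4.34 and 3.16 in the order stillborn, spontaneous abortion, alive. The remaining 15 stayed at or below RPKM 0.159, with 21 reads at most in a library, and 4 of them were at 0 throughout.

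**Figure D2:**
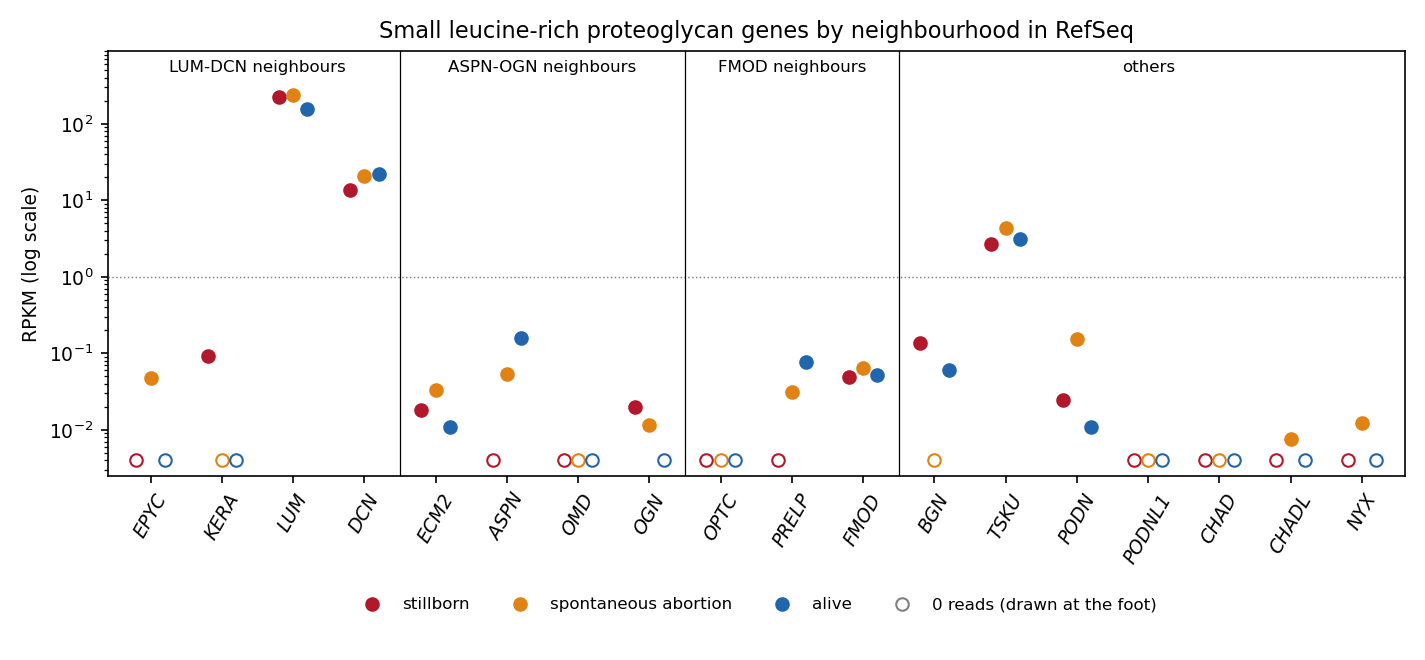
RPKM (log axis) of 18 small leucine-rich proteoglycan genes in the 3 libraries, ordered by their neighbourhood in RefSeq. Open circles stand for 0 reads. LUM, DCN and TSKU lie above RPKM 1 in all libraries, while KERA and EPYC, next to LUM and DCN, have 5 reads or fewer.

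FN1, fibronectin, took by far the most reads of the 10 genes. The stillborn library had 63515, the spontaneous abortion library 130236 and the alive library 61113, or 83.3%, 85.7% and 82.9% of all reads of the 10 genes. By recovered reads it ranked 13th, 10th and 15th of all genes. Recovered reads are lower bounds by a factor that can differ between genes, so these shares and ranks are not exact. The RPKM of FN1 was nevertheless only 28.4, 34.6 and 24.0, which ranked 1420th, 1201st and 1771st. The gene length that turns these reads into the deposited RPKM was 125911 bases for FN1, against 2018 for LUM, 4399 for DCN, 1119 for SPARC, 25424 for POSTN and 21840 for MATN2. A length of that size exceeds any fibronectin transcript, so the RPKM of FN1 sits low beside that of LUM or SPARC, and the order of levels among the genes holds only for the lengths the authors used. The median recovered length over all genes was 3273 bases, and 183 rows had more than 100000.

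Ratios of FN1 between libraries do not depend on its length. FN1 was higher in both losses, at a ratio to the alive library of 1.32 in the stillborn (1.31 to 1.34) and 1.48 in the spontaneous abortion (1.47 to 1.49). Between the losses it was 0.895 (0.887 to 0.904, stillborn over spontaneous abortion). FN1 and LUM thus both lay above the alive library in both losses. The quotient of LUM to FN1 changed 1.19-fold between the stillborn and the alive library (1.15 to 1.23) and 1.05-fold between the spontaneous abortion and the alive library (1.02 to 1.09).

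SPARC, the collagen-binding glycoprotein also called osteonectin, stood at RPKM 184 (stillborn), 134 (spontaneous abortion) and 171 (alive), from at least 3663, 4498 and 3880 reads. The mean was 163 ± 26.0 (SD, n = 3 libraries). The spontaneous abortion library was the low one, at a ratio of 0.805 to the alive library (0.771 to 0.841). The stillborn library lay at 1.20 to the alive library (1.15 to 1.26) and at 1.49 to the spontaneous abortion library (1.43 to 1.56). LUM stood above SPARC in RPKM in both losses, 1.20 times for stillborn and 1.78 times for spontaneous abortion, and below it in the alive library at 0.920 times.

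A gene was called apart between libraries when its ratio was at least 2-fold, its interval excluded 1 and its mean RPKM was at least 1. Among all 10229 genes with that mean, 19.0% were apart in stillborn against alive, 7.56% in spontaneous abortion against alive and 8.73% in stillborn against spontaneous abortion. Of the 10 genes, 4 had that mean, and 0 of these 4 were apart in any of the 3 comparisons. At a 4-fold limit 4.03%, 1.60% and 1.90% of all tested genes were apart, and 0 of the 4, which follows from the 2-fold count. Their median log2 ratio was 0.34 for stillborn over alive, 0.26 for spontaneous abortion over alive and -0.07 for stillborn over spontaneous abortion, beside medians of -0.01, -0.01 and -0.02 over all tested genes. The 4 genes thus stayed within 2-fold, with LUM and FN1 on the higher side in both losses. With library totals in place of TMM factors the median of all genes shifted by -0.16, -0.04 and -0.12. The highest scaled value of a gene was 1.57 times the lowest for LUM, 1.43 times for DCN, 1.48 times for FN1 and 1.49 times for SPARC. The median of this quotient over 10191 tested genes above 0 in every library was 1.52.

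POSTN and MATN2 had too low an RPKM for that rule, but they had reads enough to compare. Their RPKM rests on recovered lengths of 25424 and 21840 bases, against a median of 3273 over all genes. Their place below a mean RPKM of 1 therefore depends on these lengths. POSTN, periostin, a partner of collagen and fibronectin in fibrous tissue, had 43 reads (stillborn), 12 (spontaneous abortion) and 199 (alive), at RPKM 0.0953, 0.0158 and 0.387. The alive library held the most and the spontaneous abortion library the least. POSTN was 3.63-fold lower in the stillborn than in the alive library (2.60 to 5.17) and 23.9-fold lower after spontaneous abortion (13.4 to 47.0 against the same library). It was 6.58-fold higher in the stillborn than in the spontaneous abortion library (3.41 to 13.7).

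MATN2, matrilin-2, had 0 reads (stillborn), 69 (spontaneous abortion) and 116 (alive), at RPKM 0, 0.106 and 0.263. The floor of 3 reads in the stillborn library was RPKM 0.00774. By the exact interval for 0 reads, MATN2 was at least 24.3-fold lower in the stillborn than in the alive library and at least 9.92-fold lower than in the spontaneous abortion library. Taken as 3 reads without the counting error of the other library, the folds were 30.3 and 12.5. In the spontaneous abortion library it was 2.42-fold lower than in the alive library (1.78 to 3.31). Both genes were thus highest in the alive library.

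A rule set after these values were seen asked for at least 30 reads in the higher library in place of the mean RPKM. POSTN and MATN2 were then apart in all 3 comparisons and LUM, DCN, FN1 and SPARC in none. Among all genes that passed this rule, 25.6% were apart in stillborn against alive, 13.4% in spontaneous abortion against alive and 15.0% in stillborn against spontaneous abortion. A gene low in one library enters by its reads in the other, so these counts are a description. With no minimum at all, ASPN was also apart in stillborn against alive and BGN between the losses, and 21.8%, 13.6% and 14.4% of the 23276 detected genes were apart, beside 3, 2 and 3 of the 10.

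**Figure D3:**
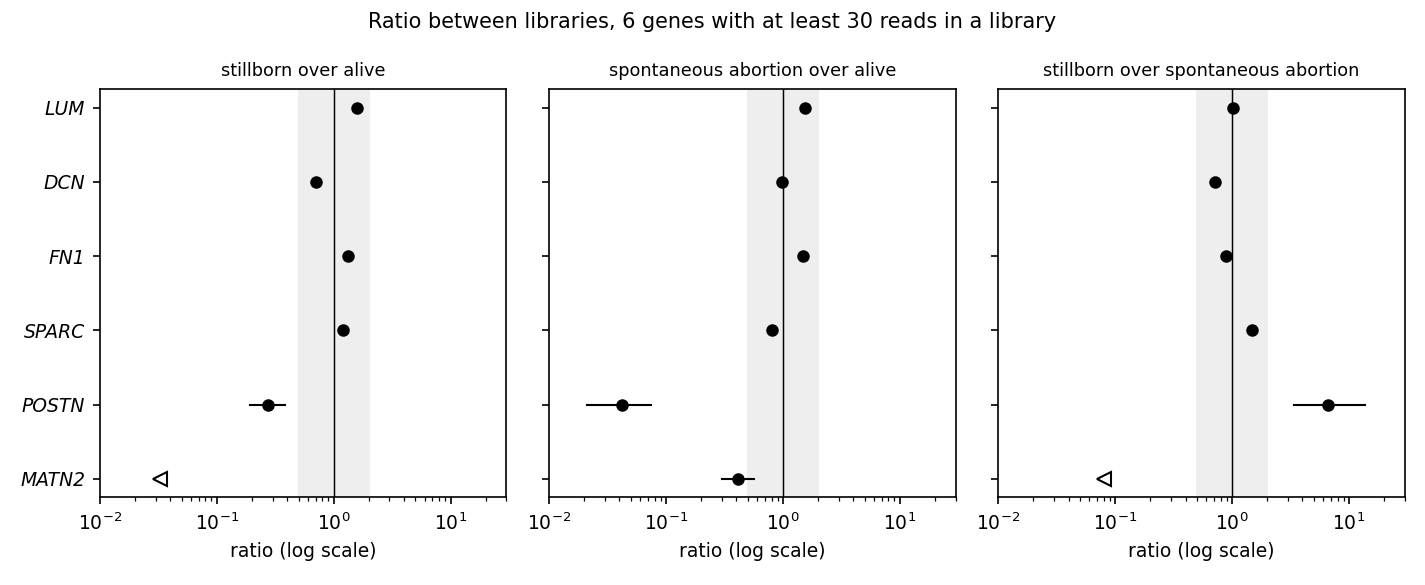
Ratio between libraries on a log axis for the 6 genes with at least 30 reads in a library. Points are TMM-scaled ratios, bars are exact 95% counting intervals (hidden by the points of LUM, DCN, FN1 and SPARC), and open triangles are ratios of a library with 0 reads taken as 3. The grey band spans 2-fold either way, with LUM, DCN, FN1 and SPARC inside it in every panel and the points of POSTN and MATN2 outside it.

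Genes that share functions with the 10 were taken from lists. Of the other matricellular genes, 24 of the 30 names listed were in the files, the 6 missing names being second symbols of the CCN genes, and 7 had a mean RPKM of at least 1. Between the stillborn and the alive library 5 of these 7 were higher and 1 lower, beside 9.93% higher and 9.09% lower over all tested genes. Their median log2 ratio was 1.26, beside -0.01 over all tested genes. SPP1, osteopontin, was 13.8-fold higher (12.7 to 15.0), at RPKM 71.1 for stillborn against 5.76 for alive. CTGF, connective tissue growth factor, was 5.17-fold higher (4.32 to 6.22). FSTL1, a follistatin-like relative of SPARC, was 2.39-fold higher (2.32 to 2.46), at RPKM 110 against 51.5. CYR61 and THBS1 (thrombospondin-1) were 2.40-fold (1.89 to 3.05) and 2.25-fold higher (2.07 to 2.45). TGFBI, an integrin-binding protein of the periostin family, went the other way. Its level was 5.94-fold lower (5.44 to 6.50), with RPKM 5.72 for stillborn and 38.0 for alive.

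Between the spontaneous abortion and the alive library, 2 of the 7 matricellular genes were higher and 0 lower, beside 4.20% and 3.35% over all tested genes. THBS1 was 2.55-fold higher (2.37 to 2.76) and CTGF 2.35-fold higher (1.96 to 2.84), while SPP1 had a ratio of 1.11 (0.999 to 1.23) and TGFBI one of 0.568 (0.543 to 0.594). Between the stillborn and the spontaneous abortion library 2 were higher and 1 lower, beside 4.89% and 3.84%. SPP1 was 12.5-fold (11.7 to 13.4) and CTGF 2.20-fold higher (1.95 to 2.48), and TGFBI was 3.37-fold lower (3.08 to 3.69). These calls kept their side under library totals and median-of-ratios scaling.

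Matricellular genes of lower RPKM entered with at least 30 reads in the higher library, beside those with a mean RPKM of at least 1. Together 12 were tested in stillborn against alive, of which 6 were higher and 4 lower, where 25.6% of all genes were apart. Between the losses 13 were tested, of which 2 were higher and 4 lower in the stillborn library, beside 15.0% of all genes. In spontaneous abortion against alive 2 of 13 were higher and 1 lower, beside 13.4%. Entry is by the reads of the higher library, so these counts are a description. Beside TGFBI the genes lower in the stillborn library were TNC, THBS2 and TNXB, named after their values were seen. TNC, tenascin-C, had 12 reads (stillborn), 186 (spontaneous abortion) and 306 (alive), and was 20.0-fold lower in the stillborn than in the alive library (11.3 to 39.1). THBS2, thrombospondin-2, had 3, 37 and 44 reads and was 11.5-fold lower (3.69 to 57.9). TNXB, tenascin-X, had 24, 103 and 112 reads and was 3.66-fold lower (2.34 to 5.95).

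Of the collagens that these proteins bind, 5 of 10 had a mean RPKM of at least 1. COL1A2, a chain of type I collagen, had the highest mean, with RPKM 39.5 (stillborn), 32.4 (spontaneous abortion) and 17.6 (alive). It was 2.52-fold higher in the stillborn than in the alive library (2.38 to 2.66) and 1.90-fold in the spontaneous abortion (1.80 to 2.00). It was the one collagen of these 5 that was apart, in stillborn against alive, where 19.0% of all tested genes were. In the other comparisons 0 of the 5 were apart, beside 7.56% (spontaneous abortion against alive) and 8.73% (stillborn against spontaneous abortion). COL1A1, also a chain of type I collagen, stood at RPKM 4.34, 8.02 and 4.41, from 2164, 6739 and 2502 reads over a recovered length of 28073 bases. COL1A2 had 3752, 5196 and 1901 reads over 5354 bases, so the order of these 2 genes in RPKM depends on the lengths. The ratio of COL1A1 to the alive library was 1.10 in the stillborn (1.04 to 1.17) and 1.87 in the spontaneous abortion (1.79 to 1.96). COL3A1 stood at 21.0, 28.6 and 21.3 and COL5A1 at 9.46, 9.09 and 8.52.

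Of 24 listed matrix glycoproteins in the files, 5 had that mean. FBN1, fibrillin-1, was at RPKM 29.8, 36.7 and 29.9, and EFEMP1, a fibulin, at 32.0, 17.9 and 19.0, in the order stillborn, spontaneous abortion and alive. In stillborn against alive, spontaneous abortion against alive and stillborn against spontaneous abortion, 1 of the 5 was apart each time. The shares over all tested genes were 19.0%, 7.56% and 8.73%. The 1 gene apart was MFAP5, a microfibril component, at 32.9, 9.36 and 2.14. It was 17.2-fold higher in the stillborn than in the alive library (14.4 to 20.7), 4.50-fold higher after spontaneous abortion (3.74 to 5.45 against the same library) and 3.82-fold higher in the stillborn than in the spontaneous abortion library (3.52 to 4.16).

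The sugar chains of proteoglycans are made by a chain of transferases, and 6 of 27 listed enzymes had a mean RPKM of at least 1. The highest were B4GALT4, at 9.59, 8.81 and 7.49, and FAM20B, the xylose kinase of the linkage region, at 5.55, 5.50 and 5.72. Between the stillborn and the alive library 2 were higher and 1 lower, beside 9.93% and 9.09% over all tested genes. CHST15, which adds a sulfate to chondroitin, was 37.9-fold higher (27.3 to 54.1) with 1100 reads against 37. CHSY1, a chondroitin synthase, was 2.05-fold higher (1.57 to 2.68), a call lost under library totals. B4GALT7, a transferase of the linkage region, was 2.54-fold lower (1.79 to 3.66). In spontaneous abortion against alive 1 was apart, CHST15 at 25.9-fold higher (18.7 to 37.0), beside 7.56% of all tested genes. In stillborn against spontaneous abortion 0 were apart, beside 8.73%.

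Of the receptors that bind the products of the 10 genes, 8 of 12 in the files had that mean. SDC4, a syndecan that binds fibronectin, was at RPKM 17.4, 17.1 and 17.9. ITGB1, the integrin chain shared by the fibronectin receptors, was at 15.1, 14.1 and 12.8, and its classical partner ITGA5 at 0.393, 0.134 and 0.0830. EGFR, which decorin binds, was at 16.8, 15.2 and 11.5. Of the 8 receptors, 1 was apart in stillborn against alive, 0 in spontaneous abortion against alive and 1 in stillborn against spontaneous abortion. The shares over all tested genes were 19.0%, 7.56% and 8.73%. The 1 receptor apart was TLR4, the innate immune receptor to which biglycan binds. It was 10.1-fold higher in the stillborn than in the alive library (8.03 to 12.8) and 10.6-fold higher in the stillborn than in the spontaneous abortion library (8.67 to 13.0).

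**Figure D4:**
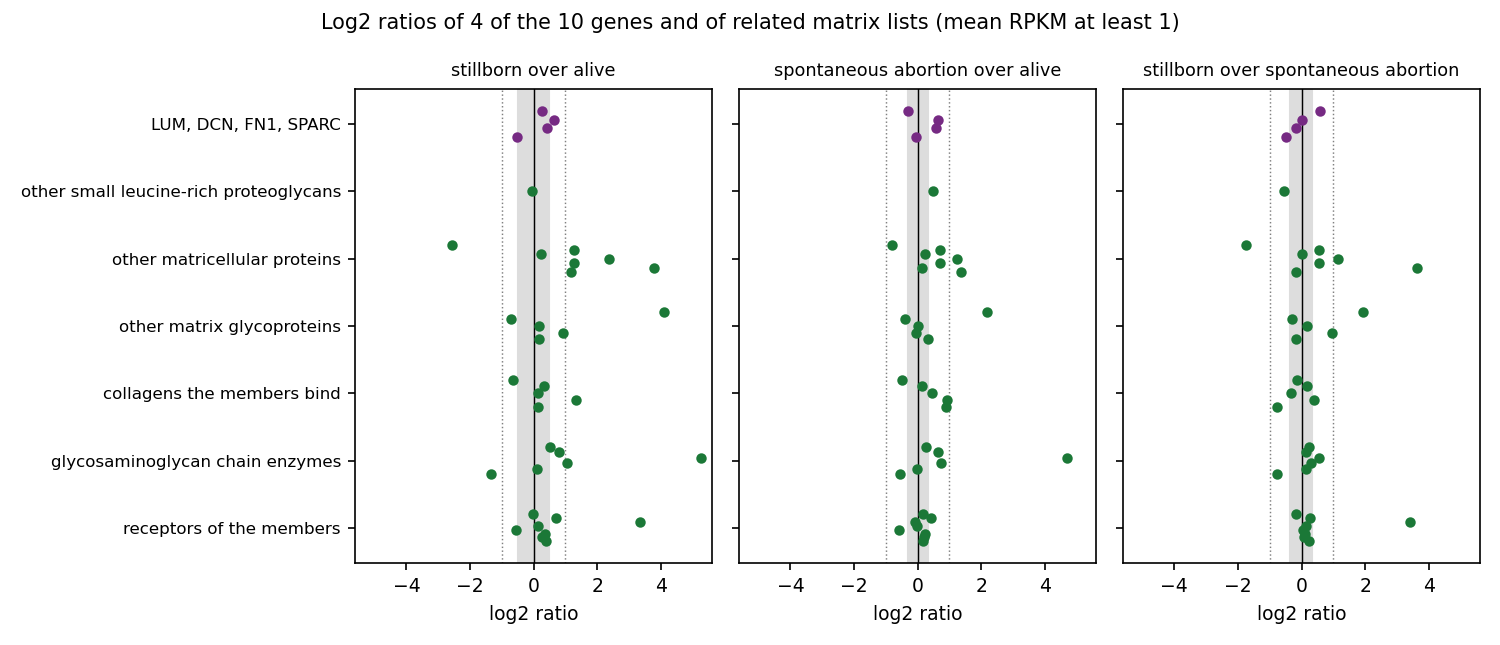
Log2 ratios between libraries, 1 point per gene with a mean RPKM of at least 1, for LUM, DCN, FN1 and SPARC (top row) and for the related lists. The grey band is the interquartile range of all tested genes and dotted lines mark 2-fold. The 4 genes of the top row lie within 2-fold in all panels, while the matricellular list reaches from 5.94-fold lower to 13.8-fold higher in stillborn over alive.

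Markers of the cells that could hold this RNA were read beside these values. Of 12 fibroblast and mesenchyme markers, 6 reached RPKM 1 in each library, and the summed RPKM was 3825 (stillborn), 3777 (spontaneous abortion) and 2605 (alive), led by VIM (vimentin) and S100A4. Neither is specific to fibroblasts, and without these 2 the other markers summed to 69.2, 76.8 and 62.7. The mesenchymal receptor PDGFRA was at 0.0398, 0.0118 and 0.0240, the transcription factor PRRX1 at 0.0176, 0.0208 and 0, and TWIST2 at 0 in each library. THY1, a surface protein of fibroblasts, was 4.55-fold lower for stillborn (3.85 to 5.40) and 2.37-fold lower for spontaneous abortion (2.14 to 2.64), each against alive. In stillborn against alive, 1 of the 6 markers with a mean RPKM of at least 1 was higher and 1 lower. Over all tested genes 9.93% were higher and 9.09% lower. In spontaneous abortion against alive 0 of these 6 were higher and 1 lower, beside 4.20% and 3.35%. The median log2 ratios of the 6 were 0.41 and 0.54, on the higher side. THY1, named after its value was seen, went against these medians and does not stand for the list.

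Hepatocyte markers, relevant to FN1, summed to RPKM 75.9, 58.7 and 72.9 over 11 genes (order as above), led by TTR and SERPINA1, with ALB at 1.51, 0.780 and 1.83 and AHSG at 0. Without the 2 leading genes the sums were 18.7, 12.5 and 8.83. Of 5 hepatocyte markers with a mean RPKM of at least 1, 3 were higher and 0 lower in stillborn against alive. Over all tested genes 9.93% were higher and 9.09% lower. Simple epithelial markers summed to 472, 622 and 782 over 8 genes, led by KRT19 and KRT18. Stratified squamous markers summed to 907, 501 and 336 over 10 genes, led by KRT6A and KRT5. The simple epithelial sum was thus highest in the alive library and the squamous sum highest in the stillborn library. Monocyte and macrophage markers, relevant to SPP1 and TLR4, summed to 38.9, 10.9 and 13.6 over 10 genes, led by CD68 and LYZ. Of these 10, 6 (stillborn), 2 (spontaneous abortion) and 5 (alive) reached RPKM 1 and 0 were without reads. Their sum, like SPP1 and TLR4, was highest in the stillborn library. The sum was lower after spontaneous abortion than in the alive library, while SPP1 stood at RPKM 6.20 and 5.76 there. Smooth muscle and pericyte markers summed to 10.2, 5.91 and 9.91 over 8 genes, led by TAGLN and RGS5. These 2 went opposite ways, with TAGLN 2.85-fold lower (2.08 to 3.96) and RGS5 26.8-fold higher (18.4 to 40.7) in the stillborn than in the alive library. The remaining lists rested on 1 gene or on levels near the limit of detection. Chondrocyte markers summed to 11.5, 19.8 and 13.0 over 8 genes, led by SOX9, with ACAN at 0. Endothelial markers summed to 1.22, 1.53 and 1.32 over 8 genes, with CDH5 and CLDN5 at 0, and tendon markers to 0.155, 0.143 and 0.137 over 3 genes, with TNMD at 0. The part of these cells in the ratios above was not tested.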

How the data were processed

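The deposited values are RPKM, 1 value per gene and library. Extraction used a circulating nucleic acid column kit with a DNase step, and 100 ng of RNA went into SPIA amplification, per the labels' protocols. Among the tools in the submitters' processing notes are STAR, HTSeq and bcl2fastq 2.17. The build, gene models, strand setting and RPKM formula are not stated in these sources, and the unit was read from the values. The 10 genes and all lists were chosen with earlier results of these data known.

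Library totals were solved for as the smallest whole numbers that make reads and gene lengths whole within the 10 printed digits and are not exceeded by the summed reads. All 23276 rows above 0 then gave whole reads and a whole length. A factor shared by a gene's length and all its reads cannot be seen, so read numbers are lower bounds, and they add up to 96.6% to 97.1% of the totals. The procedure and the calls were tested on simulated data with counting error only. These took the recovered lengths as true and the summed reads as totals, so they do not test the lengths or other variation between libraries. TMM factors (log-ratio trim 0.3, sum trim 0.05) were 0.936 (stillborn), 1.02 (spontaneous abortion) and 1.05 (alive). Ratio intervals are exact Clopper-Pearson 95% intervals given the 2 libraries' summed reads, and a library with 0 reads was taken as 3. No ratio was formed where both libraries had 3 reads or fewer, or where 3 reads would have turned its direction. No molecular identifiers are named for these amplified libraries, so intervals and floors cover counting error only. No test between statuses was made, because each has 1 library. All 10 genes are named. From each list the genes with the highest mean RPKM and those apart are named. From marker lists the leading genes and defining genes at or near 0 are named. COL1A1, PDGFRA, PRRX1, THY1, ALB, ITGA5 and the genomic neighbours were added after their values were seen. Python 3.11.15, numpy 2.4.6, scipy 1.17.1, pandas 2.3.3 and matplotlib 3.10.9 were used. Genes that overlap or share reads cannot be told apart in these values.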

Additional observations from a re-analysis of the deposited data

How the results depend on the processing

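The count of 0 of the 4 abundant genes apart held in every comparison under library totals, median-of-ratios factors and thinning to the smallest total. It also stayed with log2(RPKM + 1), log2(RPKM + 0.1), a minimum mean RPKM of 5 and a 4-fold limit, which could not have moved it. A constant added to both values only narrows a ratio, a higher limit adds no calls, and the 4 genes had mean RPKM of at least 18.9. The count moved where genes of low RPKM entered. With no minimum, 3 of the 10 genes were apart in stillborn over alive (ASPN, POSTN and MATN2, all lower), 2 in spontaneous abortion over alive (POSTN and MATN2, both lower) and 3 in stillborn over spontaneous abortion (BGN and POSTN higher, MATN2 lower). With at least 30 reads in the higher library, chosen after seeing the data, it was 2 in each. The median log2 ratio for stillborn over alive was 0.17 with library totals, 0.0871 with no minimum and -0.12 with the 30-read rule, against 0.34. For spontaneous abortion over alive it was -0.18 with no minimum and with the 30-read rule, against 0.26. For stillborn over spontaneous abortion it was -0.20 with library totals, against -0.07. Of 125 log2 ratios of single genes under the alternatives, 122 kept their sign. The 3 others were FMOD in stillborn over alive, with library totals (-0.07) and after thinning (-0.08), and LUM between the losses. Of the 125, 98 lay within the counting interval of the main ratio. With log2(RPKM + 1) the log2 ratio of MATN2 in stillborn over alive was -0.32, against -4.92. That of POSTN in spontaneous abortion over alive was -0.43, against -4.58.

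The 30-read rule admitted more genes of each list. In stillborn over alive 10 of 12 matricellular genes (6 of 7 with the minimum RPKM) were then apart, 6 of 13 glycoproteins (1 of 5), 4 of 10 collagens (1 of 5), 3 chain enzymes higher and 5 lower of 15 (2 and 1 of 6) and 4 of 11 receptors (1 of 8), beside 25.6% of all genes. In spontaneous abortion over alive it was 3 of 13, 4 of 15, 0 of 8, 5 of 18 and 1 of 10, in place of 2, 1, 0, 1 and 0, beside 13.4%. Between the losses it was 6 of 13, 7 of 15, 4 of 10, 2 of 17 and 3 of 11, in place of 3, 1, 0, 0 and 1, beside 15.0%. No paired analysis was possible because each status has 1 library, and leaving out a library leaves no comparison for that status. At the depth of these libraries, differences of BGN, OGN, FMOD and ASPN rest on 11 reads or fewer in a library.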
